A study of Mus musculus with 36 samples.

Results

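CI-994, a benzamide inhibitor of class I histone deacetylases (HDACs), was compared with its vehicle in the nucleus accumbens (NAc) of male C57BL/6J mice. The arrays were chosen by their labels alone, as the NAc arrays of the CI-994 group and of the vehicle group, which are 6 of the 36 arrays of the study. Mice aged 11 weeks received 10 daily intraperitoneal injections of CI-994 at 10 mg/kg in 5 mL/kg, or of vehicle (saline, PEG-400 and DMSO) in 7.5 mL/kg, so the injected volume differed between the groups as well as the drug. Brains were taken 1 h after the last dose. Each array held RNA pooled from 2 mice, 3 pools stood for each group, and the same pools also supplied the prefrontal cortex (PFC) and hippocampus (HIP). The labels name no engineered allele in any group. Pools 1, 2 and 3 are numbered as in the labels. The p-values measure the spread between pools, which in the main fit includes the difference between array slides described below. The other NAc arrays, of mice given Cpd-60 at 45 mg/kg or SAHA at 25 mg/kg, entered the fit only to estimate that spread.

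HDACs remove acetyl groups from lysines of histone tails, and their inhibition leaves chromatin more acetylated, which can raise or lower transcription of a gene. HDAC1, HDAC2 and HDAC3 work inside corepressor complexes such as Sin3, NuRD and CoREST. The NAc is the ventral part of the striatum, in which medium spiny GABAergic neurons carrying dopamine receptors D1 or D2 receive glutamatergic input from cortex and hippocampus. It is known for its part in reward and motivation.

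On the log2 scale of normalized intensity, the 23242 probes tested differed little between the groups. The median difference, CI-994 minus vehicle, was 0.00, the median absolute difference was 0.06 and 95% of absolute differences lay below 0.22. With limma, 0 probes (0% of those tested) passed a Benjamini-Hochberg adjusted p of 0.05, and the smallest adjusted p was 0.756. At an unadjusted p under 0.05 there were 463 probes (1.99%), of which 191 (0.822%) were higher and 272 (1.17%) lower under CI-994. With no difference in any probe, 5% of those tested (1162) would be expected at that p, so 463 is no excess. With a difference of at least 1.2-fold as well, 20 probes (0.0861%) were higher and 69 (0.297%) lower. The test used in the study's methods, an ANOVA followed by Tukey's honest significant difference, gave 156 probes at an unadjusted p under 0.05, of which 2 were higher and 10 lower by 1.2-fold or more, and 0 after adjustment. All differences below are therefore below the threshold set for a call, and their unadjusted p-values rank them.

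The 12 NAc arrays fell on 2 BeadChips (glass slides, each scanned as 1 unit, with 6 NAc arrays each), and the slide was the largest source of difference between them. BeadChip 1 carried vehicle pools 1 and 2 with CI-994 pool 1, and BeadChip 2 carried vehicle pool 3 with CI-994 pools 2 and 3. The first principal component held 52.5% of the variance and separated the slides completely, and arrays correlated at 0.983 to 0.994 within a slide and at 0.960 to 0.978 across slides. In 30.4% of probes the 3 arrays on 1 slide did not overlap the 3 on the other, against 7.61% of probes in which CI-994 did not overlap vehicle. For 3 against 3 interchangeable arrays a share of 0.1 would be expected not to overlap. A slide difference of at least 1 log2 unit was seen in 252 probes and a CI-994 difference of that size in 1. With the BeadChip as a block in the model, 806 probes (3.47%) had an unadjusted p under 0.05 and 0 passed adjustment, with a smallest adjusted p of 0.422. The main fit has no such block, so its spread includes the slide difference. Its median SE was 0.097, against 0.082 with the block. Because the groups were split unevenly over the slides, part of the slide difference also enters the main differences. The brightness of the arrays also varied, the 95th percentile of raw intensity lying between 481 and 861 in vehicle pools and between 536 and 1015 in CI-994 pools.

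**Figure D1:**
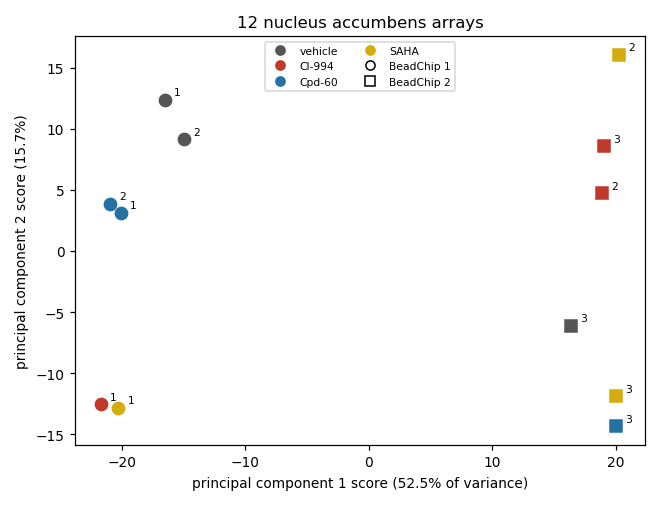
Scores of the 12 NAc arrays on the first 2 principal components of log2 intensity, coloured by treatment, shaped by BeadChip and numbered by pool. The first axis, with 52.5% of the variance, separates the 2 BeadChips, and each CI-994 pool lies on the side of its own slide.

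The tissue was checked against markers of its cells. Of 15 markers of medium spiny neurons, 14 passed the detection filter, and the defining genes gave bright signals in all pools. Ppp1r1b, which encodes DARPP-32, read 12.47, 12.65 and 12.21 in the vehicle pools and 12.30, 12.41 and 12.27 in the CI-994 pools. Drd1, the D1 dopamine receptor, read 10.83, 11.04 and 11.03 against 11.22, 10.98 and 10.62, so both groups carried these markers and overlapped.

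The genes described first are the 12 with the largest positive and the 12 with the largest negative difference among probes (1 a gene) with an unadjusted p under 0.05, at least 1.2-fold and with no overlap between the groups. Since these values chose them, their NAc differences and p-values are a description. Of the 24, 23 were detected in all 6 arrays, Zfp593 being detected in 1 of 3 vehicle pools. In 8 of the 24 (Tpd52l1, F2r, Fkbp9, Hbb-b1, Ly6c1, Rtn4, Scd2 and 9530064J02) the difference stayed past both limits whichever of the 6 pools was left out. Promoter sequences of 3 of the higher genes and 1 of the lower genes are shown because these genes carry the results below. They are RefSeq windows on GRCm38.p6, from 250 bases before to 50 after the annotated start, and the capitals mark the GC box GGGCGG, the core of the sites that Sp1-family factors bind, searched on both strands:
Tpd52l1 (chr10:31445909-31446208, minus strand): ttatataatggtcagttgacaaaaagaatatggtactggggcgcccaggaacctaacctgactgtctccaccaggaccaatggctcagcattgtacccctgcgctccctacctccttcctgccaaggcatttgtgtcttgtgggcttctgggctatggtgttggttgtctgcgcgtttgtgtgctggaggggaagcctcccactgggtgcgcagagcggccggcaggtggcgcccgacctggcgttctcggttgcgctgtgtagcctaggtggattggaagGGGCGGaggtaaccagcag
Fkbp9 (chr6:56831809-56832108, plus strand): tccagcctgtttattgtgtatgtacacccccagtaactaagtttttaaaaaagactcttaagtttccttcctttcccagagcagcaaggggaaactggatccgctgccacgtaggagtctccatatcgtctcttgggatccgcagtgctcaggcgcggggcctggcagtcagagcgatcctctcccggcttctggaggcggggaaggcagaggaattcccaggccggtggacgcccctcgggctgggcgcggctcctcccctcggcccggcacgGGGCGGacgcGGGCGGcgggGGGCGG
Fez2 (chr17:78418103-78418402, minus strand): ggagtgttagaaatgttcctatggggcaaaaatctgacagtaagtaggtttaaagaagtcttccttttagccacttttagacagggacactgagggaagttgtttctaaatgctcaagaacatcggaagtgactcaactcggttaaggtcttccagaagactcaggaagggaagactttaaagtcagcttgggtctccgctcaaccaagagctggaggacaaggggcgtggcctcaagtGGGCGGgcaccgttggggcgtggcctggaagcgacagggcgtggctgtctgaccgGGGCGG
Mog (chr17:37023349-37023648, minus strand): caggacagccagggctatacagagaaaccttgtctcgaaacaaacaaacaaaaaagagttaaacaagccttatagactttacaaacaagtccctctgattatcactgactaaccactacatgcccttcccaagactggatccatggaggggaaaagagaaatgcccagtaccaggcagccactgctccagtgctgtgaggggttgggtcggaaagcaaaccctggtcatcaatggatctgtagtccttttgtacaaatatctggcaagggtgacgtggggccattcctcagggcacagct
Tpd52l1 held 1 GC box, Fkbp9 held 3 after its start, Fez2 held 2, 1 on each side of the start, and Mog held none in this window. Windows were found for 12 of the 24 genes, 6 higher and 6 lower, and the box was present in 5 of the 6 and in 2 of the 6. A gene was counted when any of its windows held the box. The box was present in 35.7% of all 32851 windows of this length. That share counts single windows and not genes, so it is not on the same footing as the counts of genes. These matches are letters only and not sites of binding.

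Among the genes higher under CI-994, Tpd52l1 had the smallest p. It encodes a coiled-coil protein of the tumour protein D52 family. Its level was 8.19, 8.18 and 8.32 in the vehicle pools and 8.63, 8.72 and 8.81 in the CI-994 pools. Every CI-994 pool lay above every vehicle pool, and the difference was 0.44 on each BeadChip. The fitted difference was 0.49 ± 0.07 (SE), 1.40-fold, with an unadjusted p of 3.25e-05 and an adjusted p of 0.756. Another probe of the gene read 8.32, 8.45 and 8.41 against 8.71, 8.67 and 8.69, also with no overlap, a difference of 0.30 ± 0.12.

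Fkbp9, a peptidyl-prolyl isomerase of the endoplasmic reticulum, read 7.998, 8.14 and 8.08 in the vehicle pools and 8.52, 8.34 and 8.43 in the CI-994 pools. Each CI-994 pool was above each vehicle pool, a difference of 0.36 ± 0.07 (unadjusted p = 2.93e-04). Apoc1, which encodes an apolipoprotein of lipid particles, read 7.15, 7.11 and 6.82 against 7.42, 7.22 and 7.61. Its difference was 0.39 ± 0.16, with vehicle pool 3 the lowest and CI-994 pool 3 the highest. Its other probe differed by 0.15 ± 0.08. Without CI-994 pool 1, CI-994 pool 3 or vehicle pool 3, Apoc1 no longer passed, at 0.28 in the lowest of these fits.

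Fez2, of a protein family involved in axon outgrowth, read 7.92, 8.14 and 8.31 in the vehicle pools and 8.62, 8.67 and 8.49 in the CI-994 pools, 0.47 ± 0.15. Without vehicle pool 1, the lowest, its difference was 0.37 and no longer had an unadjusted p under 0.05. F2r, the thrombin receptor PAR1, read 7.57, 7.60 and 7.49 against 7.80, 7.93 and 8.01, 0.36 ± 0.11. Cbx7, a chromodomain subunit of Polycomb repressive complex 1, read 7.75, 7.75 and 7.80 against 8.37, 8.09 and 8.004, 0.39 ± 0.15. CI-994 pool 1 was the high one in Cbx7, which did not pass without it, nor without vehicle pool 1 or 2, at 0.28 in the lowest of these fits. The zinc finger gene Zfp593 differed by 0.29 ± 0.09, and by 0.23 ± 0.07 with the BeadChip as a block. It, 1110003P22Rik and C87436 no longer passed the limits under that block. The remaining 5, LOC100041569, EG667190, 1110003P22Rik, A730094H17Rik and C87436, are array symbols without a protein role that can be given here, and they differed by 0.28 to 0.36.

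**Figure D2:**
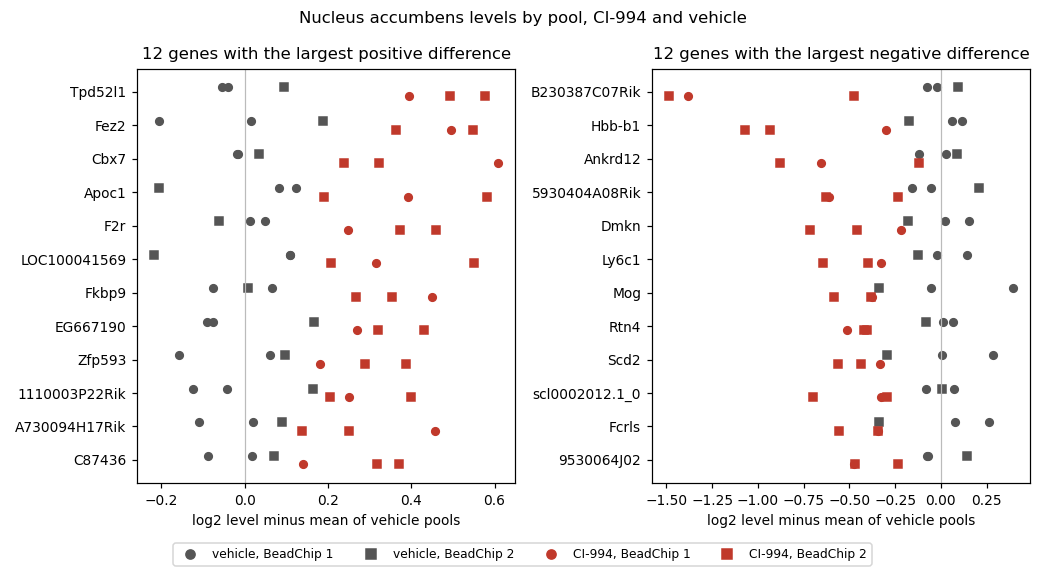
Log2 level of each of the 24 genes in each NAc pool, minus the mean of the 3 vehicle pools. Grey marks are vehicle and red marks CI-994, circles are BeadChip 1 and squares BeadChip 2. The groups do not overlap because that was part of how the genes were chosen, and the gap between them is narrow in Mog and Fcrls and wide in Tpd52l1 and Rtn4.

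Of the genes lower under CI-994, the adult beta-globin gene Hbb-b1 was measured by the most probes. The probe with the smallest p read 12.02, 12.08 and 11.79 in the vehicle pools and 11.66, 11.03 and 10.89 in the CI-994 pools, a difference of -0.77 ± 0.19 (unadjusted p = 0.00198). All 10 tested probes of the gene had a negative difference, 8 of them at an unadjusted p under 0.05, from -0.82 to -0.63, and the groups did not overlap in 3. Beta-globin genes are near copies of each other, so these probes may share transcripts. The alpha-globin gene Hba-a1 read 12.41, 12.34 and 11.75 against 12.08, 11.005 and 10.76, and here CI-994 pool 1 lay above vehicle pool 3. In Hba-a1 and in the Hbb-b1 probe with the smallest p, BeadChip 2 read lower than BeadChip 1 within each group. A dimmer Hbb-b1 probe went the other way, at 6.99, 6.90 and 7.69 in the vehicle pools, and differed by -0.02 ± 0.31. Another did as well, at 7.56, 7.61 and 8.24, and differed by -0.17 ± 0.35. For the Hbb-b1 probe with the smallest p the difference was -0.39 within BeadChip 1 and -0.83 within BeadChip 2. It was -0.70 ± 0.17 with the BeadChip as a block. Alas2, the heme synthesis enzyme of red cells, differed by -0.21 ± 0.11 (unadjusted p = 0.0756).

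Globin transcripts in brain tissue come largely from blood left in vessels. The summed normalized intensity of the 3 blood markers ran from 8100 to 11516 in the vehicle pools and from 4560 to 9533 in the CI-994 pools, with an exact permutation p of 0.2, where 0.1 is the smallest that 3 against 3 can give. The part of residual blood in the globin difference was not tested. In bulk tissue, fewer cells of a type and less RNA per cell cannot be told apart, here or in the glial genes that follow.

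The next 3 genes are known from glia and brain lipid synthesis, a grouping made after their values were seen. Mog, the myelin oligodendrocyte glycoprotein, read 9.26, 8.82 and 8.53 in the vehicle pools and 8.496, 8.29 and 8.49 in the CI-994 pools. Vehicle pool 1 was far above the rest and vehicle pool 3 barely above CI-994 pool 1. The difference was -0.45 ± 0.17, and -0.34 ± 0.14 by its other probe. Without vehicle pool 1 it was -0.25 and did not pass, nor did it without CI-994 pool 2. Scd2, the stearoyl-CoA desaturase most active in brain, read 9.19, 8.91 and 8.61 against 8.57, 8.35 and 8.47, -0.44 ± 0.13, and showed the same order of vehicle pools. Fcrls, a receptor-like gene of microglia, read 9.30, 9.11 and 8.69 against 8.69, 8.48 and 8.69, -0.41 ± 0.15, and again vehicle pool 1 was the highest. Its difference did not pass without vehicle pool 1, vehicle pool 2 or CI-994 pool 2, and reached -0.28 in the smallest of these.

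The oligodendrocyte list was read for comparison. Of its 11 tested markers 10 had a negative difference, with a median of -0.19 against 0.00 over all probes, but only Mog had an unadjusted p under 0.05. Over all probes 50.1% had a positive difference and 1.99% an unadjusted p under 0.05. Counts in the other lists are to be read beside these shares. Mbp, myelin basic protein, differed by -0.17 ± 0.15 and Mobp, another myelin protein, by 0.07 ± 0.45. The mean log2 level of the list was 10.13, 9.80 and 9.77 in the vehicle pools and 9.59, 9.69 and 9.83 in the CI-994 pools. The groups overlapped, with vehicle pool 1 the highest, and the exact permutation p of the summed signal was 0.5. Leaving out 1 pool at a time moved the median between -0.31 and -0.07. Of 11 microglial markers, 0 had an unadjusted p under 0.05.

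Rtn4, which encodes Nogo, an endoplasmic reticulum protein that inhibits axon growth from myelin, had an unadjusted p under 0.05 in 1 of its 5 tested probes, or in 2 with the BeadChip as a block. The probe named here read 8.03, 8.09 and 7.94 in the vehicle pools and 7.51, 7.60 and 7.61 in the CI-994 pools, -0.44 ± 0.08 (unadjusted p = 2.06e-04). Both groups were tight and did not overlap, on either slide. The other probes differed by -0.30 ± 0.15, -0.20 ± 0.18, -0.04 ± 0.06 and 0.17 ± 0.48. With the BeadChip as a block these were, in the same order, -0.25 ± 0.13, -0.33 ± 0.08, -0.03 ± 0.06 and -0.21 ± 0.11, beside -0.42 ± 0.08 for the named probe. All 5 were thus negative within that fit, though not of the same size. The probe at 0.17 read 7.36 to 7.49 on BeadChip 1 and 8.22 to 8.59 on BeadChip 2, and the probe at -0.04 was not detected in either group.

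Ly6c1, a surface protein of brain endothelium, read 9.05, 8.88 and 8.79 against 8.58, 8.26 and 8.51, -0.46 ± 0.14. It was the 1 endothelial marker of 9 with an unadjusted p under 0.05. Cldn5, the tight-junction protein of that endothelium, differed by -0.05 ± 0.21 and Pecam1 by -0.01 ± 0.07. The largest difference of all belonged to B230387C07Rik, a RIKEN transcript, at 9.94, 10.00 and 10.11 against 8.63, 8.53 and 9.54. CI-994 pool 3 lay well above the other CI-994 pools, and the difference of -1.11 ± 0.39 did not pass without CI-994 pool 1 or 2. Ankrd12, a nuclear ankyrin-repeat protein, showed the same high CI-994 pool 3, at 8.57, 8.72 and 8.78 against 8.03, 7.81 and 8.57, -0.55 ± 0.22. It passed in 2 of the 6 fits that left out a pool, those without vehicle pool 1 or CI-994 pool 3. The remaining 4 were 5930404A08Rik, Dmkn (dermokine, a secreted protein of epidermis), scl0002012.1_0 and 9530064J02, at -0.39 to -0.49.

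The PFC and HIP arrays of the same pools were not used to choose these genes and give a separate measure, although from the same mice and with the same split of the pools over slides as in the NAc. Of the 12 higher genes, 10 had a positive difference in the PFC and 10 in the HIP, with an unadjusted p under 0.05 in 5 and 4. Of the 12 lower genes, 11 and 9 had a negative difference, with an unadjusted p under 0.05 in 5 and 3. The share of all tested probes past that threshold, in either direction, was 3.98% in the PFC and 3.24% in the HIP, and 0 passed adjustment in either region. Tpd52l1, Fkbp9, Apoc1, Hbb-b1 and 9530064J02 passed the unadjusted threshold in both.

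Tpd52l1 was 0.42 ± 0.07 higher in the PFC and 0.33 ± 0.07 higher in the HIP. Fkbp9 was 0.32 ± 0.11 and 0.37 ± 0.10 higher, and Apoc1 0.27 ± 0.08 and 0.41 ± 0.08 higher. These 3 differences were thus of similar size in the 3 regions, and the NAc value minus the mean of the others was 0.11 ± 0.08, 0.01 ± 0.13 and 0.05 ± 0.14. Hbb-b1 differed by -0.50 ± 0.16 in the PFC and -0.73 ± 0.19 in the HIP, and 9530064J02 by -0.30 ± 0.08 and -0.62 ± 0.18.

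Other genes of the 24 had a smaller or no difference outside the NAc. Scd2 was 0.22 ± 0.10 in the PFC (unadjusted p = 0.0542) and 0.10 ± 0.17 in the HIP, against -0.44 in the NAc, Rtn4 -0.13 ± 0.09 and -0.08 ± 0.14, and Dmkn -0.08 ± 0.08 and -0.02 ± 0.07. The NAc difference minus the mean of both other regions was -0.60 ± 0.18 for Scd2 (unadjusted p = 0.00261), -0.34 ± 0.14 for Rtn4 and -0.41 ± 0.17 for Dmkn. The NAc values that chose these genes are part of this contrast. A smaller difference elsewhere and a low p are therefore favoured by the choice, and these values are a description. Over 19447 probes this test gave 360 (1.85%) at an unadjusted p under 0.05 and 0 at an adjusted p under 0.05, the smallest adjusted p being 1.00. No gene could therefore be called particular to the NAc.

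**Figure D3:**
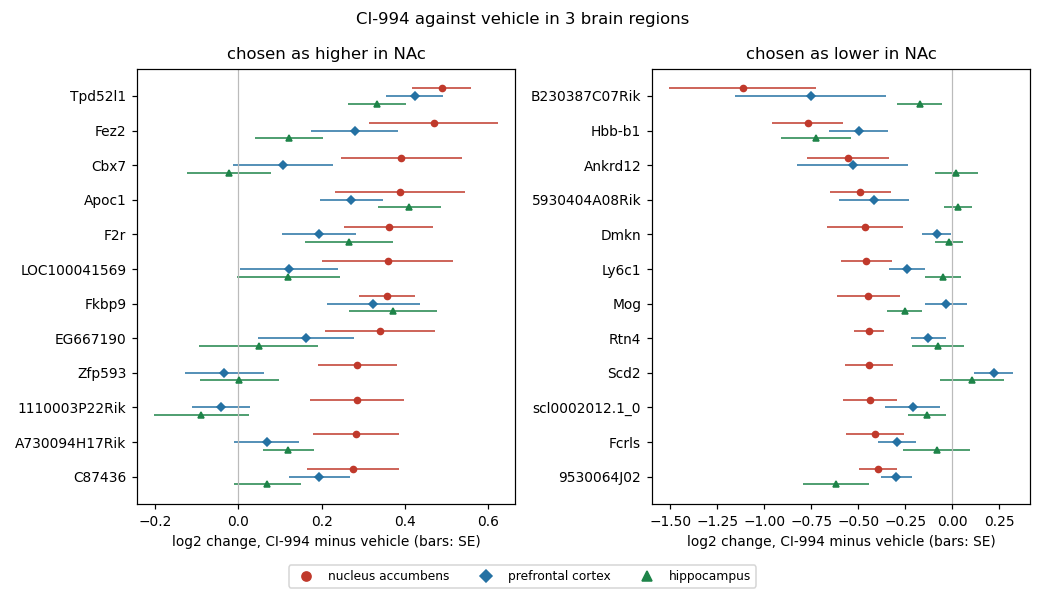
Log2 difference, CI-994 minus vehicle, of the 24 genes in the NAc (red circles), PFC (blue diamonds) and HIP (green triangles), with bars of 1 SE. Tpd52l1, Apoc1, Fkbp9, Hbb-b1 and 9530064J02 lie on the same side of 0 in the 3 regions with bars clear of 0, while Scd2 lies on opposite sides in NAc and PFC.

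Genes of HDACs and their corepressor complexes, of acetyltransferases and bromodomain readers, and genes known to respond to HDAC inhibition were then read. The values are transcript levels and not enzyme activity. Of 10 HDAC genes tested, 16 members of the corepressor complexes and 12 acetyltransferases and bromodomain readers, 0 had an unadjusted p under 0.05. Over all probes that share was 1.99%. Hdac2 read 9.55, 9.56 and 9.97 against 9.15, 10.47 and 10.27, 0.27 ± 0.41, with the higher values on BeadChip 2. Hdac3 differed by -0.01 ± 0.10 and Hdac8 by -0.15 ± 0.10. Sin3a, a scaffold of the complex of that name, differed by 0.03 ± 0.15. Crebbp and Ep300, the acetyltransferases CBP and p300, differed by -0.08 ± 0.08 and -0.01 ± 0.10. Hdac1 was not analysed here.

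Of 8 tested genes that rise under HDAC inhibitors in cultured cells, 0 had an unadjusted p under 0.05, against 1.99% of all probes. Of these 8, 7 had a negative difference, where 50.1% of all probes had a positive one. Cdkn1a, the cyclin-dependent kinase inhibitor p21 and the best known of them, read 7.64, 7.57 and 7.48 against 7.48, 7.29 and 7.01, -0.30 ± 0.35. CI-994 pool 1 and vehicle pool 3 read alike and the other CI-994 pools lay below. Gsn, the actin-severing protein gelsolin, differed by -0.04 ± 0.08 and Txnip by -0.11 ± 0.22. Of 13 histone genes the linker histone gene Hist1h1c had an unadjusted p under 0.05, at 10.07, 9.91 and 10.01 against 9.69, 9.82 and 9.76. It was lower in every CI-994 pool, by -0.25 ± 0.08 (unadjusted p = 0.0112). The replication-independent variant gene H2afz differed by 0.13 ± 0.09 and H2afx by 0.11 ± 0.15.

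Neuronal genes were next. Of the 14 medium spiny markers, 7 direct-pathway and 5 indirect-pathway markers, and of 17 genes of dopamine and cAMP signalling, 0 had an unadjusted p under 0.05. Drd2, the D2 receptor of the indirect pathway, differed by -0.17 ± 0.27. The peptide genes Pdyn (prodynorphin) and Tac1 (substance P) differed by -0.06 ± 0.15 and -0.27 ± 0.21. Penk, which encodes proenkephalin, read 8.92, 9.20 and 10.37 against 9.30, 10.47 and 10.18, and its level followed the BeadChip (8.92 to 9.30 on the first, 10.18 to 10.47 on the second).

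Genes of the glutamatergic synapse followed. Gria2, the AMPA receptor subunit that limits calcium entry, read 11.62, 11.57 and 11.82 against 11.43, 11.38 and 11.28, -0.31 ± 0.10 (unadjusted p = 0.0111). It was the 1 of 28 glutamate receptor and scaffold genes past that limit, and the list's median difference was 0.00. Each CI-994 pool lay below each vehicle pool, and the difference was -0.16 in the PFC and 0.11 in the HIP. Among 14 genes of synaptic vesicles and release, 11 had a negative difference, with a median of -0.14, where 50.1% of all probes were positive. Rims1, of the active zone, had an unadjusted p under 0.05 at -0.21 ± 0.10, against 1.17% of all probes lower at that p. With the BeadChip as a block the median was -0.10 and 0 of the 14 had such a p. Rims1 read 7.16 to 7.43 on BeadChip 1 and 6.93 to 7.19 on BeadChip 2.

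Markers of glutamatergic cortical neurons are not native to the NAc. Of 7 tested, 6 had a negative difference, with a median of -0.16, and Tbr1 (-0.24 ± 0.09) and Nrn1 (-0.64 ± 0.26) had an unadjusted p under 0.05, against 1.17% of all probes lower at that p. The median was -0.08 with the BeadChip as a block, -0.50 with neqc normalization, and between -0.31 and -0.09 with 1 pool left out. Slc17a7, the defining vesicular glutamate transporter, read 8.12, 8.29 and 7.66 against 8.61, 7.13 and 6.77. Its levels on BeadChip 1 were all above those on BeadChip 2. The summed signal of the list ran from 1019 to 1328 in vehicle and from 838 to 1299 in CI-994 pools, with an exact permutation p of 0.3. The septal marker Zic1 ranged from 7.12 to 7.69 in vehicle and from 6.90 to 8.91 in CI-994 pools. Their part in the neuronal differences was not tested.

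Transcripts of neuronal activity were read next. Of 14 immediate early genes, 0 had an unadjusted p under 0.05. Fos differed by 0.03 ± 0.21, Fosb by 0.08 ± 0.14 and Jun by -0.11 ± 0.14, and Egr3, in which each CI-994 pool was below each vehicle pool, by -0.23 ± 0.11 (unadjusted p = 0.0634). Bdnf, the brain-derived neurotrophic factor, differed by -0.17 ± 0.10 in the NAc, beside -0.27 in the PFC and -0.25 in the HIP. Of 6 neurotrophin genes, 12 neuropeptide and opioid receptor genes, 12 clock genes, 14 heat shock genes and 13 cholesterol genes, 0 had an unadjusted p under 0.05. The heat shock genes Hsp90aa1 and Hspe1 had large differences of 0.55 ± 0.78 and 0.53 ± 0.46 with errors as large, and Hsp90aa1 read 7.37 to 7.90 on BeadChip 1 and 9.16 to 9.63 on BeadChip 2.

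Among the genes of housekeeping complexes, 45 of 60 cytosolic ribosomal protein genes had a positive difference, with a median of 0.05, and 4 were higher at an unadjusted p under 0.05, against 50.1% positive and 0.822% higher at that p over all probes. Without CI-994 pool 1 the median turned to -0.02. Rpl19 read 10.02, 10.10 and 10.16 against 10.29, 10.32 and 10.32, 0.22 ± 0.07. Of the others, Rpl24 was 0.19 ± 0.07 and Rps16 0.28 ± 0.11 higher. The mean log2 level over the 60 genes was 10.94, 10.96 and 11.04 in the vehicle pools and 11.07, 11.05 and 11.07 in the CI-994 pools. CI-994 lay above vehicle by less than the range of the vehicle pools, and the exact permutation p of the summed signal was 0.3. Genes of oxidative phosphorylation (64 tested) and of the proteasome (33 tested) had medians of -0.02 and 0.00, with 0 members past the limit.

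**Figure D4:**
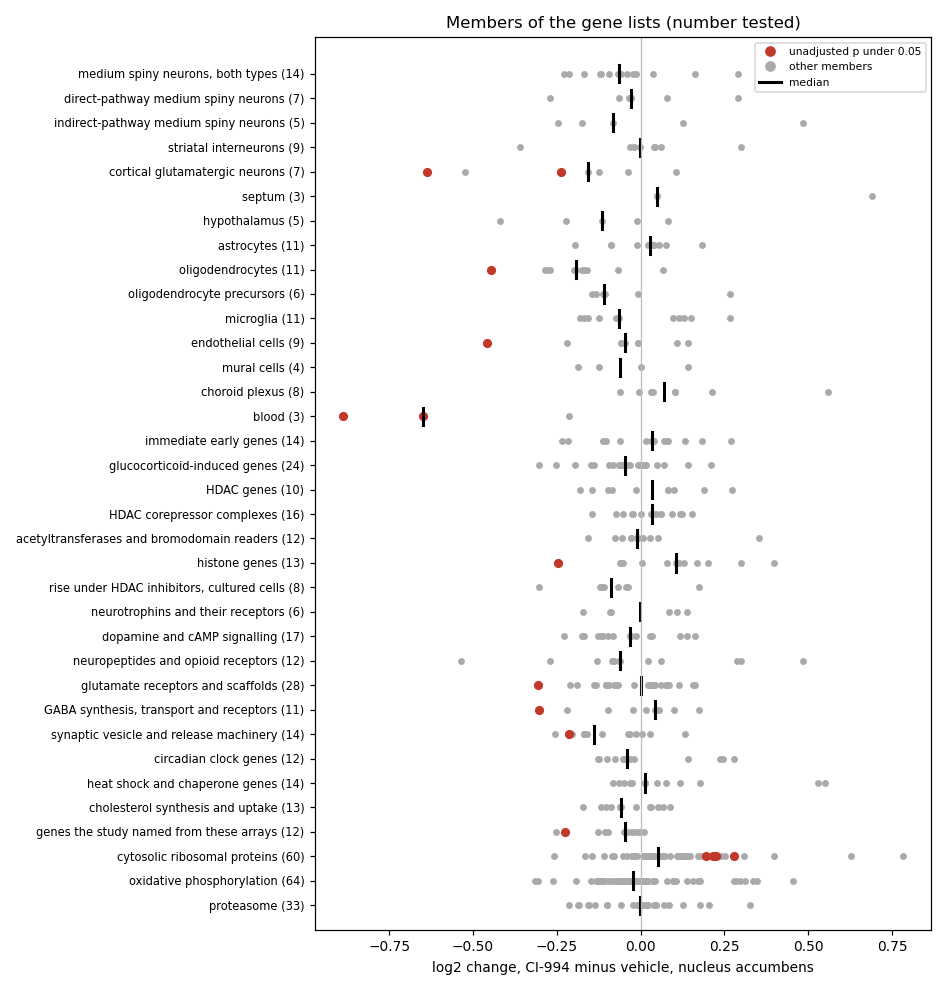
NAc log2 difference of every tested member of 35 gene lists, with the number tested in brackets. Black bars are medians, red points members with an unadjusted p under 0.05, which lie to the left of 0 except in the ribosomal protein list.

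**Figure D5:**
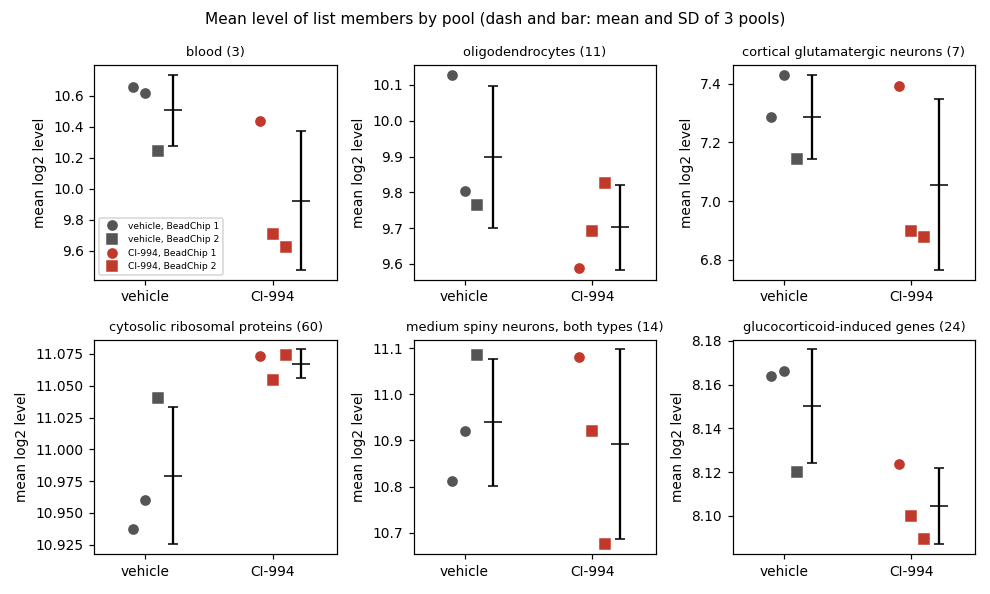
Mean log2 level of the members of 6 lists in each NAc pool, circles for BeadChip 1 and squares for BeadChip 2, with the mean and SD of the 3 pools beside them. Vertical scales differ between panels. The groups overlap for oligodendrocyte, cortical and medium spiny markers, and blood markers are lowest in the 2 CI-994 pools on BeadChip 2.

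The study named 12 genes from its other treatments, a list chosen on arrays of this series. Under CI-994, Mef2c, a transcription factor of neurons, was the 1 with an unadjusted p under 0.05. It read 10.27, 10.40 and 10.15 against 10.07, 10.06 and 10.02, -0.23 ± 0.07. Sgk1, a kinase induced by glucocorticoids, read 9.92, 10.01 and 9.97 against 10.06, 9.86 and 9.84, -0.05 ± 0.22, and Tsc22d3, which encodes GILZ, differed by 0.00 ± 0.20. The other 9 (Agxt2l1, Sult1a1, Mfsd2, Cacng5, Qdpr, Rock2, Usp54, Igfbp5 and Per2) lay between -0.25 and 0.01. Of 24 genes induced by glucocorticoids 0 had an unadjusted p under 0.05, against 1.99% of all probes. A negative difference was seen in 17, where 50.1% of all probes had a positive one. The median of these 24 turned from -0.05 to 0.03 with the BeadChip as a block.

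For these genes the values of the 3 inhibitors are set side by side, with no comparison, because the doses differ and the vehicle arrays are shared. Without that block, the median difference of the glucocorticoid list was -0.05 for CI-994 at 10 mg/kg, 0.37 for Cpd-60 at 45 mg/kg and 0.00 for SAHA at 25 mg/kg. Tpd52l1 was 0.49, 0.41 and 0.19 in the same order, and Fkbp9 was 0.36, 0.09 and 0.05. Hbb-b1 was -0.77, -0.68 and -0.54, and Rtn4 -0.44, -0.21 and -0.13. Tpd52l1, Fkbp9, Hbb-b1 and Rtn4 were chosen by their CI-994 values, a choice that favours a larger value under CI-994. Among others chosen in the same way, Apoc1 was 0.39, 0.48 and 0.12, and Ankrd12 was -0.55, -0.62 and -0.53.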

How the data were processed

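Illumina MouseWG-6 expression arrays, 36 in all, held RNA of 3 brain regions. Per the table's values, the authors gave each of 45281 probes an unnormalized intensity, and the deposited table pairs it with a detection p-value. Every sample column was matched to a sample, with 0 left over. Of 30869 symbols in the table, 22039 matched a RefSeq symbol or synonym, and probes keep the table's symbol.

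In R 4.3.3 with limma 3.58.1, all 36 arrays were quantile normalized, floored at 1 and log2 transformed. The methods kept signals thresholded at 0.8 and present in 3 of 3 replicates, read here as a detection p of at most 0.2: a probe stayed when all 3 arrays of some NAc group had a detection p of 0.2 or less, leaving 23242. The linear model with empirical Bayes moderation was fitted to the 12 NAc arrays (4 treatments) without covariates, with Benjamini-Hochberg adjustment over all probes kept. Values are group differences ± SE of the fit. The NAc effect minus the mean of PFC and HIP was fitted on 36 arrays with the pool as a random block. No array duplicated another. The number of arrays limits the precision. The test was checked on simulated data with independent noise, no slide effect and 1 log2 unit added to 200 probes. That check does not cover a slide effect or smaller differences.

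Members and gene lists were chosen with earlier results of these data known. Named genes were the 12 largest positive and negative differences under the rule given in the text, with the other tested probes of those genes, and from each list the first 3 members, any with an unadjusted p under 0.05 or, where none, the 2 largest, some of which are left to the plots. List genes are given by the tested probe of highest mean signal. Same-numbered pools of the 2 groups correlated at 0.34, -0.44 and 0.28 in their deviations from the group means. Pools numbered 1 shared a slide, as did those numbered 3, while those numbered 2 lay on different slides. The slide difference is part of these values, so they cannot decide whether the numbers pair the pools. The main fit did not pair them. The methods do not mention CI-994. Alternatives were limma's neqc (offset 16), an offset of 50, the 12 NAc arrays normalized alone, a detection p of at most 0.01, no filter, BeadChip or pool number as a block, the 6 arrays alone, each pool left out, and the ANOVA with Tukey's HSD of the methods. Results of some list members are not reported here.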

Additional observations from a re-analysis of the deposited data

Results flagged for a closer look

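Scd2 differed in opposite directions in the NAc and the PFC, with every CI-994 pool on one side of every vehicle pool in each region. The difference was 0.22 in the PFC, where its unadjusted p of 0.0542 missed the threshold, and -0.44 in the NAc. The test of NAc against the mean of PFC and HIP gave -0.60 ± 0.18 and an adjusted p of 1.00, and the NAc against the PFC alone was not tested. Scd2 was chosen by its NAc values.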

How the results depend on the processing

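The count of 0 probes at an adjusted p under 0.05 held in every setting run, for the NAc comparison and for the difference between regions. Counts at an unadjusted p under 0.05 (463 probes) became 806 with the BeadChip block, 793 with the replicate block (pool number), 199 with a detection p of at most 0.01, 1223 with no detection filter and 156 by the methods' test, and ran from 243 to 1067 when a CI-994 or vehicle pool was left out. The count rose without CI-994 pool 1 (813) or vehicle pool 3 (1067). It dropped without CI-994 pool 2 (282), CI-994 pool 3 (332), vehicle pool 1 (243) or vehicle pool 2 (288). Without CI-994 pool 1 the CI-994 pools left were all on BeadChip 2. Without vehicle pool 3 the vehicle pools left were all on BeadChip 1. Slide and treatment were thus harder to tell apart in the fits in which the count rose. With 1.2-fold added, the 20 higher and 69 lower probes became 207 and 276 with neqc, 9 and 44 with an offset of 50, 63 and 119 with the BeadChip block, 87 and 128 with the replicate block and 2 and 10 by the methods' test, and ran from 15 to 181 higher and from 46 to 367 lower with a pool left out. The cause was not tested, beyond the fewer or more probes tested under the filters and the compression of dim signals by the offset. Of the 89 probes past 1.2-fold, 64 also passed with the BeadChip block. Groups did not overlap in 5.84% of probes at a detection p of at most 0.01 and 8.04% with no filter. The test between regions (360 probes) gave 197 and 1321 under these filters and 222 to 1572 with a pool left out, 1572 without CI-994 pool 1 and 1281 without vehicle pool 3.

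Of the 24 named genes 24 passed with neqc, with the NAc arrays normalized alone and with the replicate block, 21 with the BeadChip block (all but Zfp593, 1110003P22Rik and C87436), 20 with the offset and 6 by the methods' test, and none changed sign in any setting. Within BeadChips all 24 kept their sign, which follows from choosing groups that do not overlap. For the same reason the sign could not change with a pool left out, other filters or the 6 arrays alone. Nor could it with the replicate block or the methods' test. Of 740 medians of gene lists under the alternatives, 34 moved by at least the spread between pools, among them some given with the ribosomal, cortical and glucocorticoid lists. With 3 pools of 2 mice on 2 slides, no difference of any size was called after adjustment.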
